A study of Mus musculus with 9 samples.

Results

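Smooth muscle cells of the vessel wall contract through a shared set of proteins, and 8 genes of that set were followed here: Acta2, Tagln, Myh11, Myl9, Tpm2, Cnn1, Mylk and Pln. They were chosen by name as genes of the smooth muscle contractile apparatus, and all 8 were present among the 18634 genes of the deposited count table. The arterial smooth muscle cells of the brainstem dataset carry the name VSMCA, and Acta2 was among the markers with which the study named them.

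Contraction in these cells begins when calcium binds calmodulin and activates myosin light chain kinase (Mylk), which phosphorylates the regulatory light chain (Myl9) of smooth muscle myosin (heavy chain Myh11). The myosin then pulls on filaments of smooth muscle alpha-actin (Acta2), which are lined with beta-tropomyosin (Tpm2) and bound by calponin (Cnn1) and transgelin (Tagln, also called SM22-alpha), while phospholamban (Pln) restrains the calcium pump of the sarcoplasmic reticulum. In the brain these proteins are known from the muscle coat of arteries and arterioles, and pericytes of the capillaries carry less of them.

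The tissue came from C57BL/6 mice of 9 to 11 weeks, dissected at ZT12 after normal sleep (NS), after 12 h of sleep deprivation (SD), or after the same deprivation followed by recovery sleep (RS), for which the labels give 12 h in 1 sentence and 24 h in another. Brainstem, cortex and hypothalamus were taken from each group, and the tissue of 3 mice was pooled for each of the 9 libraries, so that no region and sleep group has a replicate. No allele or agent was involved, and all groups shared papain dissociation, myelin removal beads and the habituation cage with its sweeping bar, which was switched on for deprivation. Each transcript was counted once from its 3′ end through a unique molecular identifier (UMI), so levels are given without scaling for gene length as counts per 1000000 UMIs (CPM) and as the share of cells with at least 1 UMI.

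The table held 29571 cells under 9 library codes, which no label explains. The libraries are numbered here in the order of those codes, and only library 7 could be placed, as brainstem NS, because it held all 1999 barcodes used here from the study's cell type list for that group (1 of them without a type), whereas every other library held 5 to 13 of them. Totals ran from 1522766 UMIs in library 1 to 5488950 in library 6 with a median of 3671604, and the median cell had between 402 and 1055 UMIs. Libraries 4, 5 and 6 stood apart through Gh, the growth hormone gene of the pituitary, which took 25.3% to 32.1% of their UMIs. Across libraries 549 barcodes occurred more than once, in 1105 cells. The intervals below are exact 95% intervals and cover counting error only.

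Promoter sequence is shown for the members in which a CArG box or a CArG-like match was found, since this motif, the binding sequence of serum response factor, is the textbook control element of contractile genes. A CArG box was written as CC, 6 bases that are each A or T, and GG, which reads the same on both strands, and a CArG-like match allowed 1 of the 6 core bases to be G or C. RefSeq (GRCm38.p6) gave a promoter for 6 of the 8 members, all except Tagln and Myh11, and the 250 bases before the start that its promoter table uses were searched. That start is base 156775464 of chromosome 2 for Myl9 and base 34255373 of chromosome 19 for Acta2, and both lie inside the RefSeq gene spans given below, which begin further upstream. Counted from it, Myl9 held a CArG box from 161 to 152 bases before the start and a CArG-like match from 99 to 90, and Acta2 held CArG-like matches from 84 to 75 and from 34 to 25. The Myl9 window lies outside its gene span, whereas those of Acta2 lie inside, in the untranslated part of the first exon in the GENCODE annotation. Capitals mark the matches in the windows below, printed 5′ to 3′ on the strand of the gene.
Myl9, chr2:156775294-156775393, plus strand: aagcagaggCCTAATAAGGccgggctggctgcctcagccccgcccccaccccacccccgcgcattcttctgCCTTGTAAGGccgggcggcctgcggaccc
Acta2, chr19:34255438-34255467, minus strand: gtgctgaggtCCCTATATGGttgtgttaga
Acta2, chr19:34255388-34255417, minus strand: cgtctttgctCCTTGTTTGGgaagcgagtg
Of 32851 mouse promoters of the same length, 1.47% held a CArG box and 8.59% a box or a CArG-like match. In Tpm2, Cnn1, Mylk and Pln these letters were not found in this window, which says nothing of sites elsewhere. The genes themselves lie apart in GRCm38.p6, at chr19:34240336-34255585 for Acta2, chr9:45929628-45936058 for Tagln, chr16:14194527-14292188 for Myh11, chr2:156775408-156781657 for Myl9, chr4:43513726-43523583 for Tpm2, chr9:22099221-22109221 for Cnn1, chr16:34745199-35002436 for Mylk and chr10:53337686-53345999 for Pln.

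Whole libraries differed widely in these transcripts. Summed over the 8 members, the level was 1143 CPM in library 1, 1220 in library 2, 1274 in library 3, 487 in library 4, 750 in library 5, 74.0 in library 6, 3872 in library 7, 3880 in library 8 and 2702 in library 9. Library 8 thus lay 52.5-fold above library 6 (interval 47.5 to 58.0), and 7.97-fold above the next lowest, library 4. Between neighbours in this order the intervals of libraries 8 and 7, 3 and 2, and 2 and 1 overlapped, and the other 5 neighbours were apart. All 8 members were higher in each of libraries 7, 8 and 9 than in any of libraries 1 to 6, as were 15.6% of the 15739 genes compared. All 8 were also lowest in library 6, the library with the most Gh, as were 32.2% of genes. The codes of libraries 7 to 9 share a stem, as do those of 1 to 3 and of 4 to 6, but no region or sleep group was read from this. In whole libraries, fewer cells of a type and less RNA per cell cannot be told apart.

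The filament proteins Acta2 and Tagln followed that order closely. Acta2 reached 326, 383 and 366 CPM in libraries 1, 2 and 3, 125, 208 and 16.2 CPM in libraries 4, 5 and 6, and 986, 1007 and 692 CPM in libraries 7, 8 and 9. Tagln, which binds actin filaments, had its highest level of 815 CPM in library 7, a median of 248 CPM and its lowest of 11.1 CPM in library 6. For both genes libraries 7 and 8 could not be separated by their intervals, and library 9 lay below them.

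Among the motor genes, Myl9 was the most abundant member in 7 of the 9 libraries and Acta2 in libraries 2 and 3, although in libraries 1, 2, 3, 4 and 5 the intervals of both overlapped. The levels of Myl9 were 332, 345 and 349 CPM in libraries 1, 2 and 3, 140.5, 210 and 28.2 CPM in libraries 4, 5 and 6, and 1182, 1125 and 795 CPM in libraries 7, 8 and 9. Myh11 was lower throughout, from 2.00 CPM (11 UMIs) in library 6 through a median of 54.2 to 239 CPM in library 7. Mylk, the kinase, ran from 7.29 CPM in library 6 through 57.9 to 266 CPM in library 8. The spread from the lowest to the highest library was therefore 36.5-fold for Mylk (interval 26.6 to 51.5) and 119-fold for Myh11 (66.5 to 239.9), and the latter rests on the 11 UMIs of library 6.

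Tpm2, Pln and Cnn1 completed the set, and by median Cnn1 was the least abundant member and Pln the next. Tpm2 had 5.10 CPM in library 6, a median of 103 and 252 CPM in library 8. Pln had 2.55 CPM (14 UMIs), a median of 30.9 and 164 CPM in the same libraries. Cnn1 had 1.46 CPM (8 UMIs) in library 6, a median of 16.0 and 75.5 CPM in library 8, and among its libraries 5 of 8 neighbouring pairs had overlapping intervals, as many as for Mylk and Pln.

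**Figure D1:**
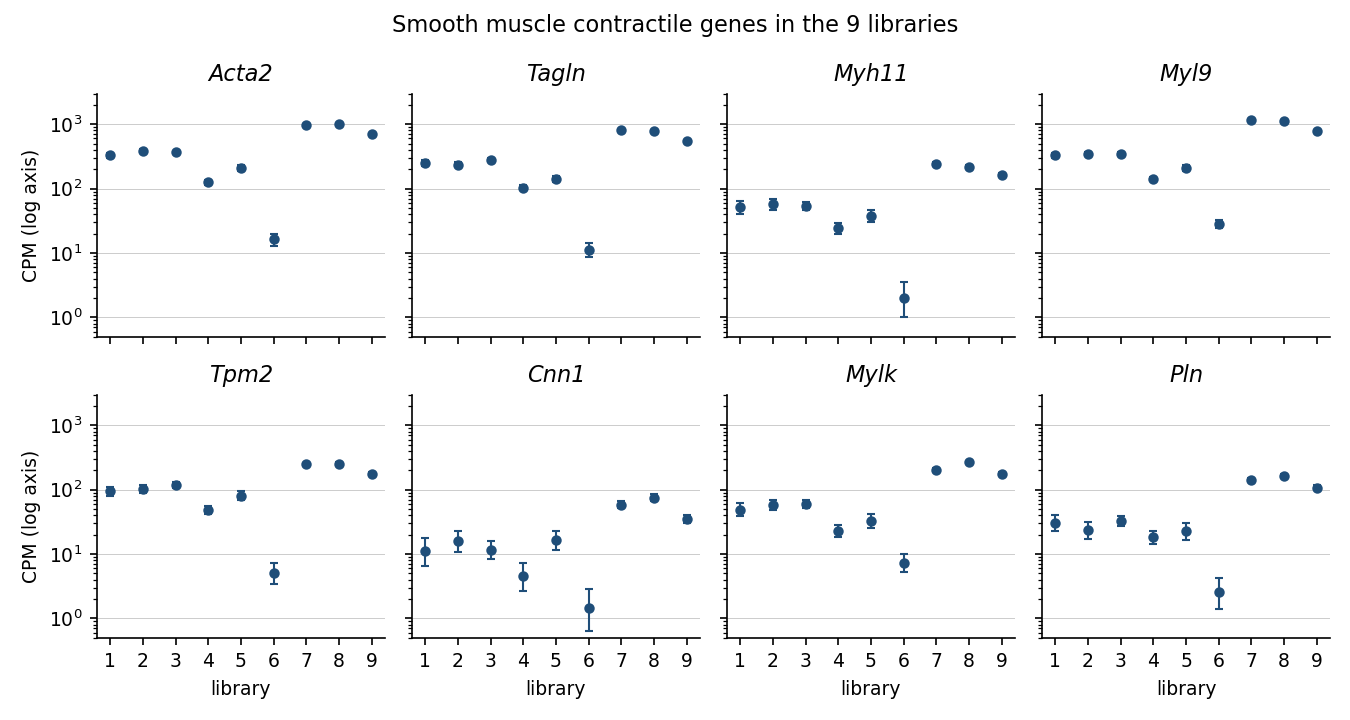
Level of each contractile gene (CPM, log axis) in the 9 libraries, with points for the summed UMIs and bars for exact 95% Poisson intervals. In all 8 panels libraries 7 to 9 lie above libraries 1 to 6 and library 6 lies lowest.

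By share of cells library 6 was again lowest, but library 9 and not library 8 was highest. Any member was found in 42.2% of the cells of library 9 and in 4.78% of those of library 6, with a median of 10.7%. After every cell was thinned to 500 UMIs and shallower cells were left out, the shares ran from 2.25% in library 6 to 31.0% in library 8. Cells with at least 4 of the 8 members numbered 1910 of 29571 (6.46%), and they held 87.1% of all member UMIs. Their share was 0.204% in library 6 (8 cells) and 14.1% in library 9 (522 cells).

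The cell types of the brainstem NS library showed where these transcripts lay. The list named 230 VSMCA, and their summed member level was 26347 CPM against 772 CPM in the 1769 other listed cells, a ratio of 34.1 (interval 32.3 to 36.1). VSMCA held 84.4% of the member UMIs of all listed cells. These types were made by the study from the same cells and all genes, with Acta2 among the markers, so the contrasts between them are descriptions without a test. All 12 non-member markers of smooth muscle were at least 4-fold higher in VSMCA, against 1.78% of all genes tested. Among them Map3k7cl had 688 CPM, Mustn1 1418 CPM and Des 182 CPM, while the endothelial gene Cldn5 stood at 22.7 CPM. The types were made from all genes, these included, and the markers were listed with earlier results of these data known. Their levels are therefore no separate support for the label.

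In VSMCA the filament genes were found in nearly every cell. Acta2 had 7027 CPM (6734 to 7330) and a UMI in 229 of 230 cells, and Tagln had 5992 CPM and a UMI in 97.4% of cells. In the other listed cells the 2 genes had 173 and 105 CPM. Their ratios were 40.6 (36.2 to 45.7) for Acta2 and 57.0 (49.3 to 66.2) for Tagln, the latter overlapping those of Pln, Cnn1 and Myh11. Tpm2 had 1639 CPM against 47.9 CPM, a UMI in 76.1% of VSMCA and a ratio of 34.2. Cnn1 was the scarcest member, with 373 CPM and a UMI in 25.7% of VSMCA, and only 16 UMIs were found in all other listed cells. Endothelial cells and microglia had 0 Cnn1 UMIs, and VSMCA were at least 80.7-fold and at least 63.1-fold higher when 3 counts are taken as the floor of each type, with exact lower limits of the ratios of 64.6 and 50.5.

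The motor and its switch followed. Myl9 had 7219 CPM in VSMCA and a UMI in 99.1% of cells, and its ratio to the other cells was 22.7 (20.7 to 24.8), which overlapped that of Mylk. Myh11 had 1756 CPM, a UMI in 79.6% of cells and a ratio of 39.2. Mylk had 1328 CPM, a UMI in 74.8% and a ratio of 25.02 (20.1 to 31.4). The pump regulator Pln had 1013 CPM, a UMI in 66.1% and a ratio of 47.9. All members were thus higher in VSMCA than in the pooled other cells, and the intervals of the levels did not overlap for any of them.

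With 10 CPM added to both sides, all 8 members were at least 4-fold higher in VSMCA, against 1.78% of the 9483 genes with at least 20 UMIs in listed cells. Their median fold was 30.4, with a range of 21.0 to 52.2, beside a median of 0.775 over all genes tested. They took ranks 1, 2, 4, 5, 6, 10, 11 and 12. The other 4 of the first 12 were Map3k7cl, Mustn1, Sncg and Lmod1, all of them on the list of smooth muscle markers. That list was made with earlier results of these data known, so the match is no separate support for the label. Set against pericytes alone, 7 of 8 members were at least 4-fold higher, against 1.38% of genes. The exception was Myl9 at 3.80-fold.

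**Figure D2:**
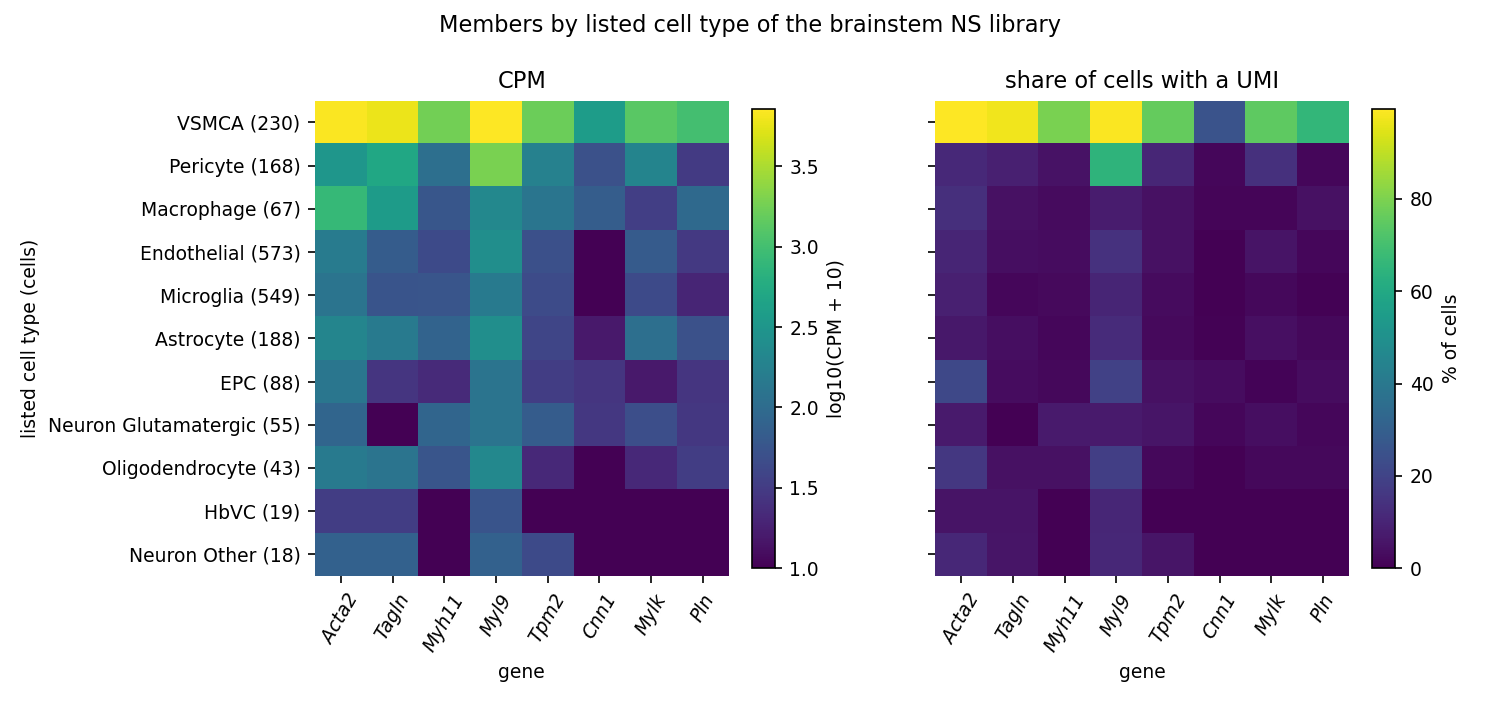
Level (log10 of CPM + 10, left) and share of cells with at least 1 UMI (%, right) for each member in the 11 listed cell types of the brainstem NS library, named as in the list, with the number of cells in brackets. The VSMCA row is the brightest in every column, and Myl9 is the member that is bright in pericytes too.

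Pericytes, which are cells of the capillary wall, were the next type by summed level, at 3211 CPM, 8.21-fold below VSMCA (7.48 to 9.02). Myl9 made up 58.9% of their member UMIs, against 27.4% in VSMCA. It had 1893 CPM there and a UMI in 109 of 168 pericytes, 7.67-fold above endothelial cells (6.30 to 9.38). Mylk was next by share of cells, with 182.5 CPM and a UMI in 13.7% of pericytes. Tagln and Acta2 had higher levels, at 500 and 304 CPM, but a UMI in 8.93% and 11.3% of pericytes. Pln was scarce in these listed cells, with 3 UMIs in 168 pericytes, a level 49.9-fold below VSMCA (16.9 to 243.5).

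The listed pericytes were not of 1 kind. When library 7 was clustered without the members, 117 of them fell in pericyte-like clusters and 47 in a cluster named from fibroblast or leptomeningeal markers, where the matrix gene Dcn had 4808 CPM against 35.9 CPM. In the 117 cells Myl9 had 2876 CPM and a UMI in 79.5%, while Tagln had 3 UMIs, or 35.9 CPM. In the 47 cells Tagln had 1142 CPM and Myl9 547 CPM, but their shares of cells were alike, at 25.5% and 27.7%. A single one of these 47 cells, of 2799 UMIs, carried 35 of their 71 Tagln UMIs, and it held 81 of the 475 member UMIs of all listed pericytes.

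Elsewhere single cells also carried much of the signal. Macrophages had 807 CPM of Acta2, the highest level outside VSMCA, yet 1 macrophage with 4948 UMIs, against a median of 1133, held 58 of the 67 Acta2 UMIs and all 8 members. Without it, as chosen after seeing the data, the summed level of macrophages fell from 1710 CPM to 256 CPM. A single astrocyte likewise held 52 of 139 member UMIs. Among the cells called oligodendrocytes 1 cell held 29 of 48. That label went against several markers, since Cldn11 had 727 CPM while Mbp had 11.5 CPM and Mag, Mobp and Ermn had 0 UMIs. No doublet caller was run and all cells were kept, so the part of doublets in these levels was not tested.

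Free RNA in a droplet gives UMIs to cells that do not make a transcript, so the shares in VSMCA need a background. Acta2 had a UMI in 8.74% of microglia and 10.5% of endothelial cells, whose median depths were 796 and 910 UMIs, against 99.6% of VSMCA at 1319.5 UMIs. At 500 UMIs per cell the shares were 5.54%, 4.91% and 91.7%. The members did not keep 1 proportion, for Tagln had 0.853 UMIs per Acta2 UMI in VSMCA (0.801 to 0.908) but 0.390 in microglia (0.230 to 0.641) and 0.409 in endothelial cells (0.272 to 0.602). The ratio was 0.143 in ependymal cells, from 3 Tagln UMIs, and 1.64 in pericytes. A single cell held 10 of the 23 Tagln UMIs of microglia, and the part of free RNA in these proportions was not tested. A share in microglia or endothelial cells at this level was not read as expression.

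At full depth, cells with many members were mostly VSMCA, which were also deeper, at a median of 1319.5 UMIs. The types were made from all genes, with Acta2 among the markers, so these counts are a description. The median VSMCA had 6 of the 8 members, none had fewer than 3, 33 cells had all 8, and 227 of 230 (98.7%, interval 96.2 to 99.7) had at least 4. Among the other listed cells 26 of 1769 (1.47%) had at least 4, of which 11 were endothelial, 6 pericytes and 5 microglia, and 69.4% had none. The 26 had a median of 1666.5 UMIs, against 853 UMIs for all these cells. Of the 253 listed cells with at least 4 members, 227 were VSMCA. At 500 UMIs per cell, 82.6% of VSMCA still had at least 4, while Tagln alone was found in 89.6% of VSMCA and 1.94% of the others. The share of the others with at least 4 is not given at that depth, so the count and Tagln were not compared there.

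**Figure D3:**
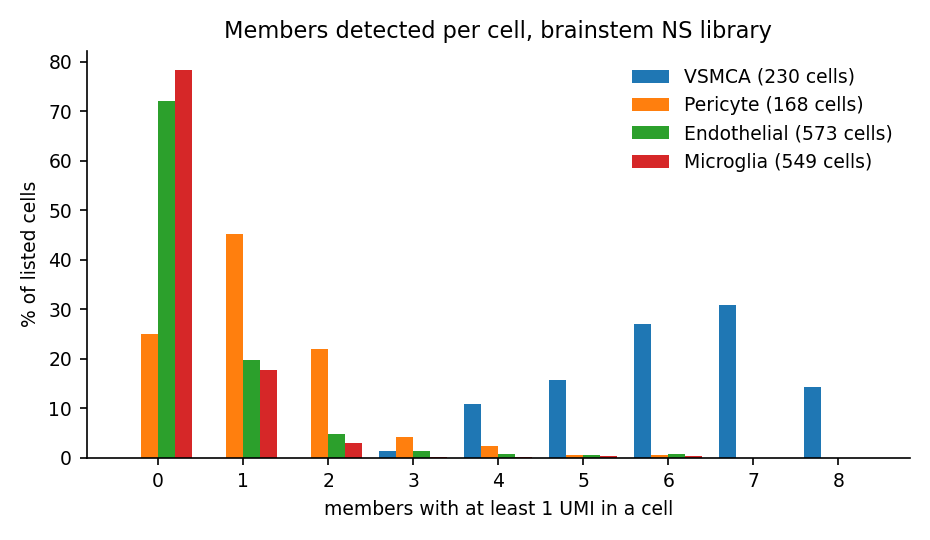
Share of listed cells (%) by the number of contractile genes with at least 1 UMI, for VSMCA, pericytes, endothelial cells and microglia of the brainstem NS library. VSMCA lie between 3 and 8 members with most cells at 6 and 7, whereas pericytes most often have 1 (76 of 168 cells) and most endothelial cells and microglia have none.

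Within VSMCA the members varied from cell to cell. The 8 genes together gave a median of 30 UMIs per cell, from 5 to 153, which was 2.40% of a cell's UMIs, from 0.670% to 5.50%. Median counts per cell were 9 UMIs for Myl9, 8 for Acta2 and 6 for Tagln, and 0 for Cnn1. At 500 UMIs per cell, the 28 pairs of members were found together 0.892 to 1.37 times as often as the product of their shares, with a median of 1.02, and their rank correlations over the 230 cells of this 1 library lay between -0.128 and 0.253, with a median of 0.103 and 24 of 28 above 0, which is weak and in sparse counts. Cells with a Cnn1 UMI after thinning (32 of 230) had a mean of 5.22 Acta2 UMIs against 3.12 in those without. Tagln had 4.22 against 2.74, Myh11 1.28 against 0.798 and Pln 0.719 against 0.465. Myl9 had 4.469 against 3.515 and Tpm2 0.8125 against 0.687, but Mylk had 0.625 against 0.662. Cells with a Pln UMI (86 of 230) had 3.72 Acta2 UMIs against 3.23, 3.20 of Tagln against 2.79, 0.837 of Tpm2 against 0.625 and 0.233 of Cnn1 against 0.132, but 3.21 of Myl9 against 3.91 and 0.547 of Mylk against 0.722.

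All 29571 cells were also clustered with the 8 genes left out, and 1 cluster was called VSMC-like from its other markers, led by Mustn1, Map3k7cl, Crip1 and Lmod1. Over the listed types Mustn1 and Lmod1 rose with the mean of the members, at Pearson's r of 0.979 and 0.976. The grouping was therefore not independent of the members, and a high and similar member level in this cluster was partly set by it. The cluster held 1728 cells, including 228 of the 230 listed VSMCA and 7 other listed cells. By library it held 83, 117, 130, 73, 71, 3, 407, 412 and 432 cells for libraries 1 to 9. As a share of cells this was lowest in library 6, at 0.0766% (0.0158 to 0.224), and highest in library 8, at 11.7% (10.7 to 12.8), with 10.9% and 11.6% in libraries 7 and 9 and 2.09% to 4.74% in libraries 1 to 5.

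Inside these cells the libraries differed far less than as a whole. The summed member level was 38961, 41427, 38360, 36478 and 42589 CPM in libraries 1 to 5, 36772 CPM in library 6 and 26448, 26295 and 22266 CPM in libraries 7, 8 and 9. The highest was thus 1.91-fold above the lowest (1.80 to 2.03), against 52.5-fold for whole libraries. Libraries 7 to 9, which were highest as a whole, were lowest here, and each of libraries 1 to 6 lay above them. When cells with at least 1000 UMIs were clustered anew, which changed depth and cluster together, this order was lost. Libraries 1, 2, 4, 5 and 6 then had 1254 to 19247 CPM, from 1 to 4 cells each, and library 3 had 29714 CPM from 5 cells. Libraries 7, 8 and 9 had 26600, 27586 and 21374 CPM from 333, 185 and 173 cells. Depth moved with this split, as the median VSMC-like cell had 918 to 1321 UMIs in libraries 7 to 9 and 341 to 682 in libraries 1 to 6, as did mitochondrial transcripts, at 10.8% to 14.5% of their UMIs against 3.63% to 9.76%, and the part of either in the difference was not tested. The 8 pericyte markers summed to 478 CPM in library 6 and 2862 to 4420 CPM in the others, without that split. Endothelial markers had 360 to 481 CPM in libraries 7 to 9 and 0 to 342 CPM in libraries 1 to 6. These sums were taken without intervals, and library 2 at 342 CPM lay close to library 8 at 360 CPM, so no split was read from them. Pituitary endocrine markers were lower in libraries 7 to 9, at 0 to 3.61 CPM against 64.4 to 176695 CPM. Fibroblast or leptomeningeal markers did not follow the split, and the part of other cell types in the difference was not tested. Gh made up 3.92%, 0.562% and 17.4% of UMIs in libraries 4, 5 and 6. The value of library 6 rests on 3 cells and 77 member UMIs.

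By gene, and leaving library 6 aside, Tpm2 differed most, from 1366 CPM in library 9 to 4690 CPM in library 5, or 3.43-fold. Its levels were 3354, 3623, 3476 and 3779 CPM in libraries 1 to 4 and 1687 and 1727 CPM in libraries 7 and 8. Acta2 differed 2.44-fold, from 5900 CPM in library 9 to 14379 CPM in library 2. Mylk differed least, from 1108 CPM in library 1 to 1641 CPM in library 8, or 1.48-fold. The order of the sum was that of Acta2, Tagln, Myl9 and Tpm2, which were higher in each of libraries 1 to 5 than in libraries 7 to 9, with intervals apart. Mylk, Myh11, Pln and Cnn1 did not separate these libraries. In library 6 Acta2, Tagln and Myl9 rest on 20, 15 and 12 UMIs, and their intervals overlapped those of libraries 7 to 9. Cnn1, Pln and Myh11 were highest in the 3 cells of library 6, from 4, 7 and 7 UMIs, and without that library their spreads were 3.01-fold, 1.58-fold and 1.76-fold.

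**Figure D4:**
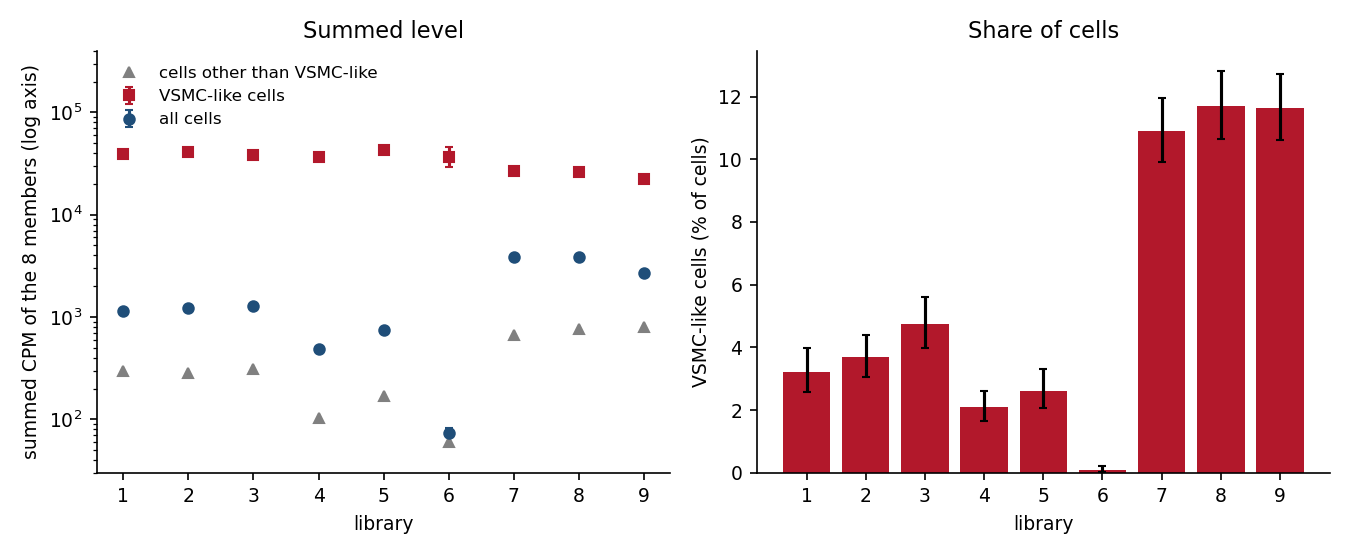
Left, summed level of the 8 members (CPM, log axis) in VSMC-like cells, in all cells and in the cells other than VSMC-like of each library, with exact 95% intervals for the first 2. Right, VSMC-like cells as a share of all cells (%) with exact 95% intervals. VSMC-like cells keep between 22266 and 42589 CPM in all libraries while their share runs from 0.0766% to 11.7%.

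Outside the VSMC-like cells the members had 59.96 CPM in library 6, a median of 295 CPM and 797 CPM in library 9. Myl9 led in these cells in all 9 libraries, with 33.9% to 45.4% of member UMIs, whereas in VSMC-like cells Acta2 led in 6 libraries and Myl9 in 3. In most libraries VSMC-like cells held the greater part of the member UMIs, from 73.1% in library 9 to 85.0% in library 7, but in library 6 they held 19.0%.

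The pericyte pattern of Myl9 was seen in every library. In pericyte-like cells, clustered in the same way and 14 to 344 in number, Myl9 had 2255, 1793 and 1727 CPM in libraries 1, 2 and 3, 917, 1568 and 1122 CPM in libraries 4, 5 and 6, and 2074, 1821 and 1473 CPM in libraries 7, 8 and 9. In all 9 libraries its interval lay above that of endothelial-like cells (12.1 to 190 CPM) and below that of VSMC-like cells, which were 3.55-fold to 10.6-fold higher with 10 CPM added. Acta2 and Tagln had medians of 448 and 435 CPM in pericyte-like cells. Their intervals lay above those of endothelial-like cells in 8 of 9 libraries each, those of Tpm2 in 7, and those of Myh11, Mylk and Pln in 5 each. Pln had a median of 94.0 CPM in pericyte-like cells, from 17.4 to 262 CPM. Cnn1 had 0 UMIs in the pericyte-like cells of 5 of 9 libraries. The intervals of VSMC-like cells lay above those of pericyte-like cells in all 9 libraries for 6 members and in 8 for Cnn1 and Mylk.

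**Figure D5:**
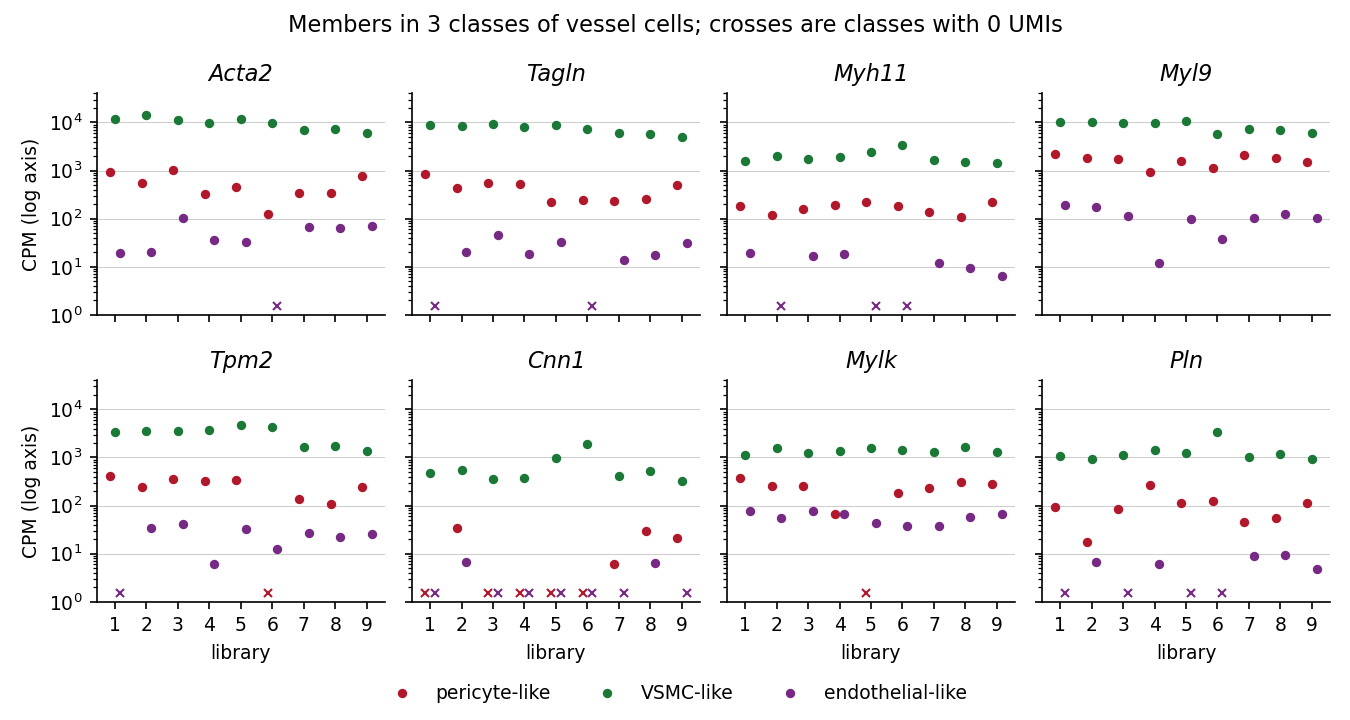
Level (CPM, log axis) of each member in VSMC-like, pericyte-like and endothelial-like cells of the 9 libraries, from clusters made without the members; crosses near the axis stand for 0 UMIs. VSMC-like cells are highest in every panel, and Myl9 is the member with the highest pericyte-like levels, from 917 to 2255 CPM.

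Library 7 alone gave 2 VSMC-like clusters when clustered without the members at resolution 1, but a single one of 401 cells at resolution 0.5, so the contrast below rests on that setting. The larger, of 367 cells, was led by Map3k7cl and Mustn1, and the smaller, of 40 cells, had Cyr61 and Nr4a1 among its leading genes, with Fos (an immediate early gene) at 2442 CPM against 121 CPM. None of the 10 leading genes of the smaller cluster was a smooth muscle marker, although all 12 markers were raised in it. Cnn1 had 1157 CPM in the smaller cluster and 299.5 CPM in the larger, a ratio of 3.86 (2.91 to 5.10), and a UMI in 67.5% against 23.4% of cells. The other ratios were 1.66 for Tpm2, 1.51 for Acta2, 1.42 for Tagln, 1.39 for Myh11, 1.34 for Pln and 1.16 for Myl9, and that of Mylk, 1.19, had an interval of 0.956 to 1.46. Median depths were 1713 and 1290 UMIs, and the clusters were made from the same cells, so these are descriptions.

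Other genes of contraction were taken from fixed lists, and a gene was counted as higher or lower at 4-fold. Of 13 tested paralogs of the members, 1 was at least 4-fold higher in VSMCA, Tpm1 at 11.1-fold, and 2 were at least 4-fold lower, the nonmuscle light chain Myl12b at 0.231 and the tropomyosin Tpm3 at 0.212. Over all genes tested, 1.78% were at least 4-fold higher and 6.28% at least 4-fold lower, and the counts of the lists below stand beside these shares. The cytoplasmic actins Actb and Actg1 had folds of 2.32 and 1.02. Actg2, which some counts could share with Acta2 because the genes are alike, had only 9 of its 13 UMIs in VSMCA. The median fold of the paralogs was 1.03.

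Of 12 tested genes of the light chain switch and calcium sensitivity 5 were at least 4-fold higher, against 1.78% of all genes: Ppp1r14a (CPI-17, an inhibitor of myosin phosphatase) at 18.7, Ppp1r12b at 10.6 and Ppp1r12a at 4.51, which encode the phosphatase's targeting subunits, the essential light chain Myl6 at 7.84, and the kinase Rock1 at 4.61. Rhoa and Rock2 had folds of 0.796 and 0.878. Of 14 tested genes that anchor thin filaments 9 were higher, with a median of 6.83, among them Lmod1 (leiomodin) at 23.0, Filip1l at 16.5, Csrp1 at 10.7 and desmin (Des) at 8.78. Cald1, caldesmon, had 6.03 against all other cells but 0.966 against pericytes.

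Of 8 tested receptors and signalling enzymes 6 were higher, again against 1.78% of all genes, with Pde3a at 13.4 and the guanylate cyclase subunit Gucy1a3 at 7.86, besides Pde5a, Notch3, Ednra and Gucy1b3. Of the 9 tested calcium and channel genes 1 was higher, the potassium channel Kcna5 at 8.56, while the calcium channel subunit Cacna1c had 3.75 from 15 UMIs and the calcium pump Atp2a2, the target of Pln, had 1.97. None of 6 tested transcriptional regulators was higher or lower. Srf had 1.73 from 8 UMIs and Myocd, the coactivator of Srf, had too few UMIs to be tested. Among 8 pericyte markers Higd1b and Cspg4 were higher in VSMCA than in all other listed cells, at 4.92 and 4.48, but not than in pericytes, at 0.639 and 0.700, and Kcnj8 and Abcc9 were lower, at 0.228 and 0.184.

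The genes closest to the members were ranked by Pearson's r of log2(CPM + 10) with the mean of the 8, as a description over points that share their libraries. Over the 8 types of at least 50 listed cells, among 3210 genes, the 10 nearest were Mustn1 (0.979), Lmod1, Mrps36, Hspb2, Ppp1r14a, Uba2, Nexn, Gm10053, Bcas3 and Filip1l (0.911). Over the 9 libraries, among 12993 genes, Mustn1 (0.992) was again the nearest, followed by Filip1l (0.991), Cnn2, Tm6sf1, Tonsl, Tgfb1i1, Anxa3, Vtn, BC028528 and Slc9a3r2 (0.982). That second list held genes that were low in VSMCA, such as the pericyte gene Vtn with a fold of 0.355 and Tm6sf1 with 3.25 CPM, and 696 genes passed 0.9 over the libraries against 22 over the types.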

How the data were processed

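The authors counted UMIs per gene and cell with Cell Ranger (version 2.2.0 in the submitters' processing notes, genome GRCm38) and deposited raw whole-number counts, not normalized, in 1 table whose columns carry a barcode and a library code. The 8 genes and all lists were chosen with earlier results of these data known. Genes named by rule were all members, the 10 nearest by likeness (genes with at least 100 UMIs in listed cells), listed genes past 4-fold and paralogs. Fos, Cyr61, Nr4a1, Cldn5, Gh, Dcn, Rhoa, Rock2, Cald1, Cacna1c, Atp2a2, Srf, Myocd, Vtn, Crip1 and the oligodendrocyte markers were named after their values were seen.

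Counts were summed over cells and divided by all UMIs (CPM). Exact Poisson, Clopper-Pearson and conditional binomial intervals were taken at 95%. Each library of 3 pooled mice is 1 sample, so no test or p-value was made, and the comparisons of sleep groups in each region could not be made because 8 library codes remained unassigned. Listed types came from the study's cell list, held here for 1999 cells, of which only barcodes and names were used.

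Clusters were built on the 2000 most dispersed genes, on a log scale after scaling each cell to 10000 UMIs, and 13 principal components, 20 neighbours and the Leiden method at resolution 1 (alternative 0.5) were used. A cluster took a name only when at least 3 fixed markers were at least 2-fold higher and in at least 10% of its cells. This alone was not enough, since a cluster of 59 cells in library 7 had 5 such markers and stayed unnamed. Clusters were made with leidenalg 0.10.2 on python-igraph 0.11.9 and scikit-learn 1.9.0, intervals with scipy 1.17.1, tables with pandas 2.3.3 and numpy 2.4.6 under Python 3.11.15, and plots with matplotlib 3.10.9. Folds and clustering were tested on simulated data. Member identifiers and promoters came from RefSeq (GRCm38.p6), and exons at the printed windows from the GENCODE annotation of the same build.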

Additional observations from a re-analysis of the deposited data

How the results depend on the processing

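No analysis paired by region could be made because the codes of all libraries except library 7 remained unassigned, and nothing was tested. Of 102 values recomputed under alternative settings, 58 stayed within the main interval or within 1.5 times the main count, and 44 moved. The 64 folds of single members in VSMCA stayed between 18.4 and 137.0. The ratio of the highest to the lowest library (52.5) was 40.4 with the total without mitochondrial, hemoglobin and Gh UMIs, 96.6 in cells with at least 1000 UMIs, 63.3 without cells above the 95th percentile of UMIs, and 39.5 as a mean over cells. Leaving out library 6, an alternative chosen after seeing the data, gave 7.97. The highest share of cells with a member (42.2%) was 31.0% thinned to 500 UMIs and 53.9% in cells with at least 1000 UMIs, and that of listed cells other than VSMCA (30.6%) was 19.4% and 40.2% under the same settings. The fold of VSMCA for the 8 members (33.7) was 31.2 in cells with at least 1000 UMIs, 37.3 without the cells above the 95th percentile, 35.9 as a mean over cells, 38.0 with free RNA subtracted and 38.8 with clusters made without the members. It was 53.7 when the other cells with at least 4 members were left out, which must raise it by construction. This setting was chosen after seeing the data, as were the macrophages without 1 cell (256 CPM for 1710) and the listed pericytes of pericyte-like clusters (Myl9 2876 CPM for 1893, Tagln 35.9 CPM for 500.2). The share of VSMCA with at least 4 members was 82.6% thinned to 500 UMIs. In cells with at least 1000 UMIs, which were clustered anew, the highest share of VSMC-like cells (11.7%) was 20.1%. The ratio within VSMC-like cells (1.91) was 1.79 with the total without mitochondrial, hemoglobin and Gh UMIs. It was 23.7 in the cells clustered anew, where depth and cluster changed together. In that clustering libraries 1 to 6 had 1 to 5 VSMC-like cells each, and 5 of these libraries fell below libraries 7 to 9. Over libraries 7 to 9 alone the ratio was then 1.29. With 1 CPM added, 7 of the 10 nearest genes over the types and 6 of the 10 over the libraries were shared with the main list. Beyond this, the cause of the changes was not tested. The levels of library 6, the library with the most UMIs, rest on 406 member UMIs.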
